A study of Mus musculus with 12 samples.

Results

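Chemokines are small secreted or membrane-bound proteins that direct the movement of leukocytes, and each acts through a G protein-coupled receptor on the migrating cell. CC chemokines such as Ccl2 and CXC chemokines such as Cxcl1 are named after the spacing of their conserved cysteines, and 1 ligand often binds several receptors. In liver, Kupffer cells, stellate cells, endothelial cells and hepatocytes all make chemokines, and monocytes, neutrophils and lymphocytes carry most of the receptors. The 52 genes described here are those whose name on the array begins with Ccl, Cxcl, Ccr, Cxcr, Cx3cl, Cx3cr or Xcl followed by a digit, together with Ccrl2 and Il8rb (older name of Cxcr2). Those genes were measured by 69 of the 41174 probes, and 16 of them had more than 1 probe, of which the brightest over all groups was used. Several names are older ones: Cxcl4 is Pf4, Cxcl7 is Ppbp and Ccl27 is Ccl27a.

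Liver RNA of 12 male C57BL/6 mice was measured on 1-colour Agilent arrays with a Cy3 label. The groups were SIRT1+/- mice on a high-fat diet (Het HF), SIRT1+/+ mice on a high-fat diet (WT HF), SIRT1+/- mice on a low-fat diet (Het LF) and SIRT1+/+ mice on a low-fat diet (WT LF), with 3 biological replicates each and 34 weeks on the diet. SIRT1 is an NAD-dependent deacetylase, and the comparisons ask how the diet and the loss of 1 Sirt1 allele alter liver expression. The kind of allele, the age of the mice and the make-up of the diets are not given in the sources used here. Sirt1 itself was at 73.8% of its WT level in Het livers (two-sided exact permutation p = 0.005, the smallest that 400 arrangements within diets can give).

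Levels are log2 intensities relative to the 75th percentile of the same array, so 0 means as bright as that percentile. A level says how one probe compares between livers and does not rank genes, because probes differ in brightness. Between 58.0% and 71.6% of spots were well above background on an array, and precision is limited by how few arrays there are. Each diet had its own scan day and slides of its own, so diet cannot be told apart from either. In whole liver, more cells of a type and more RNA per cell cannot be told apart either. Hepatocyte markers were bright on every array, with a summed log2 level between 9.74 and 10.3.

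For 40 of the 52 genes at least 1 group had all 3 arrays well above background, and these were tested; 31 of them were so on all 12 arrays. Among the 40 tested, 5 (Ccl8, Ccl12, Ccl17, Ccr4 and Il8rb) passed through high-fat groups alone, and 3 of these (Ccl12, Ccr4 and Il8rb) through Het HF alone. None passed through low-fat groups alone. The 12 that were not tested include the neutrophil attractants Cxcl2 and Cxcl5, each well above background on 2 arrays, and the Ccr6 ligand Ccl20 on 1 array. Ccl22, a ligand of Ccr4, was measured on 1 array, Ccr10 on 2, its ligand Ccl28 on 4 and Ccr1l1 on 7. Ccl1, the eosinophil attractant Ccl11, Ccr1, Ccr8 and Cxcl15 were well above background on 0 arrays. Ccr1 is a receptor of Ccl3, Ccl5, Ccl6 and Ccl9, all of which were measured, and a probe that is not well above background does not show that the transcript is missing. Outside the naming rule, the probes of Cxcr1, Cxcl3 and Cxcl17 were well above background on 0 arrays, and that of Cxcr5, the receptor of Cxcl13, on all 12.

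**Figure D1:**
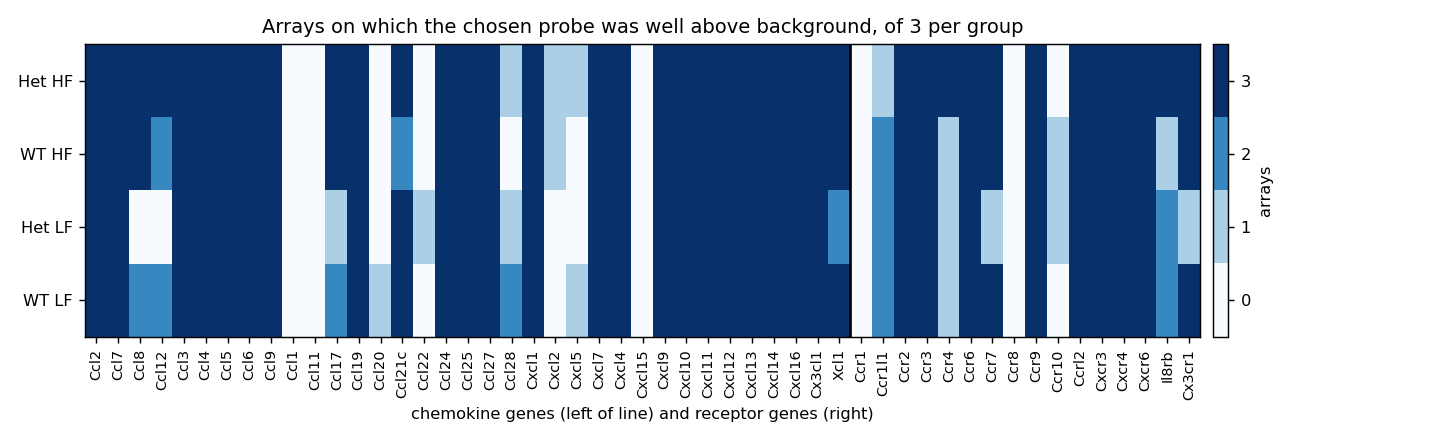
Number of arrays per group (0 to 3, shade of blue) on which each of 51 genes was well above background; columns are genes, rows the 4 groups. Most genes are dark in every row, Ccl8 is at 0 in Het LF, and Ccr4 is at 3 in Het HF against 1 in each other group.

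Diet was the comparison in which chemokine genes passed the test. Of the 40 tested genes, 8 passed in Het mice (HF minus LF), 4 in WT mice and 13 in the mean over both genotypes (limma, Benjamini-Hochberg adjustment over all 17042 genes, adjusted p under 0.05). Ccl2, Ccl4, Ccr7, Cx3cl1, Cx3cr1, Cxcl4 and Xcl1 rose and Cxcl13 fell in Het. In WT, Ccl2, Cxcl4 and Cx3cl1 rose and Cxcr6 fell. Over both genotypes 11 rose and 2 fell. The counts within a genotype rest on few livers: the WT count was 0 without WT HF replicate 1, 2 or 3 or WT LF replicate 1, 1 without WT LF replicate 2 and 2 without WT LF replicate 3. Over all genes the WT calls fell too, from 1009. They were 254, 245 and 186 without WT HF replicate 1, 2 or 3. Without WT LF replicate 1, 2 or 3 they were 208, 805 and 346. The Het count of members was 4 without Het HF replicate 1 and 5 without Het LF replicate 1 or 3. Over all genes those settings called 874, 1097 and 1519, against 2702 with all arrays. The count of members over both genotypes stayed between 11 and 15.

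Set against all genes tested, the share called was 20% of members in Het against a background of 15.9%, and 10% in WT against 5.92%. Over both genotypes it was 32.5% against 30.2%, which is near the background. Rising members made up 11 of the 13 calls over both genotypes (84.6%), against 44.5% of the calls over all genes (60.4% with scaling to the median). Of the 40 tested members 11 rose and 2 fell, where 13.4% of all tested genes rose and 16.7% fell. In Het 7 of the 40 rose and 1 fell, against 7.6% and 8.26% of all genes. In WT 3 of the 40 rose and 1 fell, against 2.73% and 3.19%. The median difference was 0.47 in Het, 0.070 in WT and 0.39 over both for the members, against -0.0043, -0.047 and -0.029 for all genes. None of the 5 genes that passed through high-fat groups alone was among the calls. The Het and WT comparisons use different animals, and the comparison over both genotypes holds them all. The interaction of genotype and diet was called for 0 of the 40 and 0 of all genes, so calls made in one genotype and not in the other do not show a difference between them.

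**Figure D2:**
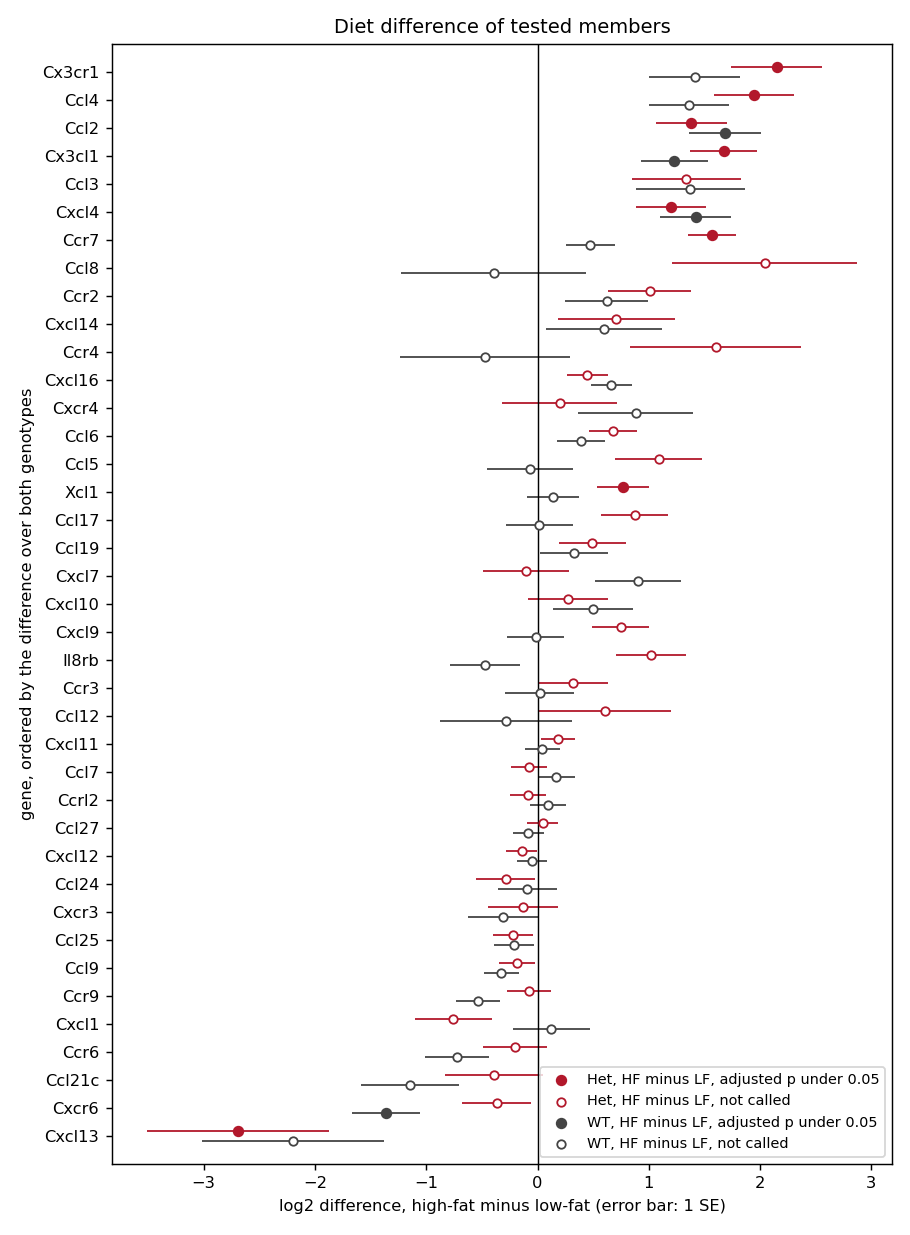
Difference between high-fat and low-fat livers (log2, horizontal axis, error bar 1 SE) of 39 tested genes, in Het (red, upper) and WT (grey, lower), with filled points where adjusted p was under 0.05. Genes are ordered by the difference over both genotypes, with Cx3cr1, Ccl4, Ccl2 and Cx3cl1 at the top and Cxcr6 and Cxcl13 at the bottom, and the order within a genotype differs.

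Ccl2, Ccl7, Ccl8 and Ccl12 were grouped as CC ligands that attract monocytes. Ccl2, also called MCP-1, was at 1.26, 0.49 and 1.64 in Het HF livers against -0.41, 0.41 and -0.76 in Het LF livers, and at 0.998, 0.68 and 0.90 in WT HF livers against -0.81, -1.05 and -0.61 in WT LF livers. Every high-fat liver was above every low-fat liver of its genotype, although Het LF replicate 2 came close to the lowest Het HF liver. The difference was 1.38 ± 0.32 (SE) in Het (adjusted p = 0.020), 1.68 ± 0.32 in WT (adjusted p = 0.022) and 1.53 ± 0.23 over both, or 2.89-fold (adjusted p = 0.0014). The Het call was lost without Het HF replicate 1 or Het LF replicate 1 or 3 (adjusted p at most 0.074) and the WT call without any WT HF replicate or WT LF replicate 1 (at most 0.063), and the call over both held under each removal. The probe was spotted 10 times on each array, and the SD between those spots was at most 0.079, far below the spread between livers. Ccl2 is also the only one of the 4 that passed on its brightest probe.

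Ccl7, encoded next to Ccl2, had 2 probes that disagreed. Its brightest probe was at -2.53, -2.47 and -2.51 in Het HF against -2.49, -2.22 and -2.57 in Het LF, and at -2.04, -2.45 and -2.49 in WT HF against -2.76, -2.32 and -2.41 in WT LF. Those groups overlapped, with a difference of 0.048 ± 0.12 over both genotypes (adjusted p = 0.775). The other probe was at -3.36, -3.46 and -2.42 in Het HF against -4.71, -3.56 and -5.34 in Het LF, and at -3.20, -3.45 and -3.31 in WT HF against -5.53, -5.66 and -4.85 in WT LF. On it every high-fat liver was above every low-fat liver, and with each probe tested on its own the difference was 1.75 ± 0.29 (adjusted p = 0.0024). It was well above background on 11 of the 12 arrays, and it passed within Het (1.46, adjusted p = 0.040) and within WT (2.03, adjusted p = 0.025). The 2 probes are shown because they differ for one gene. Both lie on the plus strand 152 bases apart, in mm7 at chr11:82128577-82128636 for the brighter and chr11:82128729-82128788 for the other, and the Ccl2 probe lies at chr11:82118723-82118782 on the same strand. Which exon or UTR they fall in was not annotated here, since no genome of that build was used. The probes as spotted read:
Ccl7, brightest probe: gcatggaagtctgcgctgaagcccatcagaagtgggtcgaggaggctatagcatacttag
Ccl7, other probe: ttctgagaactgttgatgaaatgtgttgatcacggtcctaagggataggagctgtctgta
Ccl2: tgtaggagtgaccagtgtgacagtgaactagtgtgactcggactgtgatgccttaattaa

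Ccl8 and Ccl12 were dim and passed no test. Ccl8 was at -3.31, -5.08 and -4.48 in Het HF against -7.20, -5.49 and -6.32 in Het LF, and at -5.08, -3.24 and -5.18 in WT HF against -2.67, -5.93 and -3.71 in WT LF. Het HF lay above Het LF without overlap, and both WT groups overlapped. Since no Het LF array measured Ccl8 well above background, its diet difference in Het is a bound of at least 1.97-fold higher (adjusted p = 0.114). Such a bound takes, on each array of the dim group, the weakest signal of any probe that was well above background, or the gene's own signal if that was brighter, and sets the bright group's mean against it. Ccl12 was likewise measured on no Het LF array, so its difference in Het is a bound of at least 1.14-fold higher (adjusted p = 0.510), and in WT it differed by -0.29 ± 0.59 (adjusted p = 0.792).

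Among the other inflammatory CC ligands, Ccl3 and Ccl4 (MIP-1 alpha and beta, attractants of monocytes and T cells) and Ccl6, a myeloid-cell chemokine, rose over both genotypes, while Ccl5 and Ccl9 did not pass. Ccl4 was at -0.94, -1.66 and -0.13 in Het HF against -3.11, -2.26 and -3.21 in Het LF, and at -1.55, -1.74 and -1.61 in WT HF against -2.80, -3.39 and -2.79 in WT LF. No high-fat liver overlapped a low-fat one. The difference was 1.95 ± 0.36 in Het (adjusted p = 0.0084), 1.36 ± 0.36 in WT, which just missed the threshold (adjusted p = 0.0506), and 1.65 ± 0.25 over both (adjusted p = 0.0015).

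Ccl3 was at -1.57, -2.36 and -0.51 in Het HF against -3.07, -1.82 and -3.56 in Het LF, and at -1.79, -1.66 and -1.56 in WT HF against -2.99, -3.50 and -2.64 in WT LF. WT groups did not overlap, and in Het the overlap came from Het HF replicate 2 and Het LF replicate 2. The difference of 1.36 ± 0.35 passed over both genotypes (adjusted p = 0.015) and within neither. Ccl6 was at 2.15, 1.76 and 1.41 in Het HF against 0.75, 1.25 and 1.30 in Het LF, and at 1.96, 1.72 and 1.46 in WT HF against 1.43, 1.40 and 1.13 in WT LF. Here the high-fat livers were above the low-fat livers of their genotype by a narrow margin, with a difference of 0.53 ± 0.15 (adjusted p = 0.024). That call was lost without WT HF replicate 1 (adjusted p = 0.059), Het HF replicate 1 (0.054), WT LF replicate 3 (0.055) or Het LF replicate 1 (0.057).

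Ccl5 (RANTES), a chemokine made by T cells and NK cells, had a difference of 1.09 ± 0.39 in Het, with an adjusted p of 0.080, and of -0.069 ± 0.39 in WT, with an adjusted p of 0.927. Ccl9, a ligand of Ccr1, was at 2.31, 2.17 and 2.32 in Het HF against 2.73, 2.44 and 2.20 in Het LF, and at 2.30, 2.40 and 2.40 in WT HF against 2.62, 2.48 and 2.97 in WT LF. Its WT groups did not overlap and its Het groups did, and the difference of -0.25 ± 0.11 did not pass (adjusted p = 0.110).

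Cx3cl1 (fractalkine), a membrane-bound chemokine that also acts as an adhesion molecule, and its receptor Cx3cr1, a receptor of monocytes and macrophages, both rose. Cx3cl1 was at 0.16, -1.36 and -0.24 in Het HF against -2.01, -2.31 and -2.13 in Het LF, and at -1.11, -1.20 and -1.14 in WT HF against -2.30, -2.26 and -2.58 in WT LF. All 6 high-fat livers were above all 6 low-fat livers, and Het HF replicates 1 and 3 stood highest. The difference was 1.67 ± 0.30 in Het (adjusted p = 0.0079), 1.23 ± 0.30 in WT (adjusted p = 0.042) and 1.45 ± 0.21 over both (adjusted p = 0.0013), the lowest adjusted p of the 40 genes. Its WT call was lost without any of the 6 WT livers or any Het LF liver (adjusted p at most 0.108).

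Cx3cr1 was at -2.59, -3.61 and -2.24 in Het HF against -4.08, -5.06 and -5.75 in Het LF, and at -3.65, -3.81 and -3.48 in WT HF against -4.98, -5.35 and -4.86 in WT LF. No high-fat liver overlapped a low-fat one, and only 1 of the 3 Het LF arrays measured the gene well above background. The difference was 2.15 ± 0.41 in Het (adjusted p = 0.0091), 1.41 ± 0.41 in WT (adjusted p = 0.065) and 1.78 ± 0.29 over both (adjusted p = 0.0020). With normexp background correction it was 1.36 in Het and 1.06 over both, again called.

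The second Cx3cr1 probe did not show this. It was at -4.65, -4.84 and -5.00 in Het HF against -5.95, -4.28 and -5.44 in Het LF, and at -5.09, -5.95 and -6.24 in WT HF against -4.95, -4.72 and -6.20 in WT LF, and the groups overlapped in both genotypes. Its difference was -0.037 ± 0.33 (adjusted p = 0.942), and it was well above background on 7 arrays against 10 for the brighter probe. The Cx3cr1 result rests on 1 of 2 probes. Both lie on the minus strand, 1592 bases apart, in mm7 at chr9:119745795-119745854 for the brighter and chr9:119747387-119747446 for the other:
Cx3cr1, brightest probe: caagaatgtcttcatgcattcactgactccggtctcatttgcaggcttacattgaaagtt
Cx3cr1, other probe: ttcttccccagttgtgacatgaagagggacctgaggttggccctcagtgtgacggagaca

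Xcl1 (lymphotactin), made by NK cells and activated T cells, was at -3.87, -4.13 and -3.89 in Het HF against -5.18, -4.68 and -4.35 in Het LF, and at -4.41, -4.05 and -4.21 in WT HF against -3.96, -4.41 and -4.73 in WT LF. Het HF lay above Het LF without overlap, and both WT groups overlapped. It rose in Het by 0.77 ± 0.23 (adjusted p = 0.047), with 0.14 ± 0.23 in WT (adjusted p = 0.736). This call is at the threshold, and it held only without WT LF replicate 1 or 3 or Het LF replicate 3, the other 9 removals giving an adjusted p of at most 0.160.

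Of the CXC ligands that attract neutrophils or come from platelets, Cxcl4 rose. Cxcl4 (platelet factor 4), stored in platelet granules, was at 0.37, -0.42 and 0.72 in Het HF against -0.74, -0.64 and -1.56 in Het LF, and at 0.28, 0.48 and -0.24 in WT HF against -1.10, -1.35 and -1.29 in WT LF. All high-fat livers were above all low-fat livers, with differences of 1.20 ± 0.32 in Het (adjusted p = 0.030), 1.42 ± 0.32 in WT (adjusted p = 0.032) and 1.31 ± 0.22 over both (adjusted p = 0.0025). The Het call was lost without Het HF or Het LF replicate 1 or 3 (adjusted p at most 0.103) and the WT call without any WT liver (at most 0.091). Cxcl7, the other platelet chemokine, did not pass, with -0.10 ± 0.39 in Het and 0.90 ± 0.39 in WT (adjusted p = 0.879 and 0.175). Cxcl1, a ligand of Cxcr2, differed by -0.76 ± 0.35 in Het and 0.12 ± 0.35 in WT (adjusted p = 0.155 and 0.845).

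The interferon-induced ligands of Cxcr3 did not pass in any diet comparison. Cxcl9 differed by 0.75 ± 0.26 in Het (adjusted p = 0.074) and -0.018 ± 0.26 in WT, Cxcl10 by 0.39 ± 0.26 over both genotypes (adjusted p = 0.271) and Cxcl11 by 0.12 ± 0.11 over both (adjusted p = 0.445). Cxcr3 itself differed by -0.22 ± 0.22 (adjusted p = 0.480).

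Cxcl16 and its receptor Cxcr6 went opposite ways. Cxcl16, a membrane-bound scavenger receptor as well as a chemokine, was at 0.87, 0.25 and 0.23 in Het HF against -0.21, 0.30 and -0.092 in Het LF, and at 0.56, 0.61 and 0.46 in WT HF against -0.25, -0.10 and -0.0056 in WT LF. WT groups did not overlap, and Het LF replicate 2 lay among the Het HF livers. The difference over both genotypes was 0.56 ± 0.13 (adjusted p = 0.011), and the other probe, tested on its own, gave 0.88 ± 0.16 (adjusted p = 0.0039).

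Cxcr6, a receptor of liver-resident T and NKT cells, was at -2.40, -2.45 and -2.59 in Het HF against -2.76, -1.98 and -1.60 in Het LF, and at -2.41, -2.60 and -2.84 in WT HF against -0.85, -1.05 and -1.87 in WT LF. All WT HF livers were below all WT LF livers, and Het LF replicate 1 lay below the Het HF livers. It fell by 1.36 on the log2 scale in WT (SE 0.31, adjusted p = 0.033), differed by -0.37 ± 0.31 in Het (adjusted p = 0.430) and fell by 0.86 over both (adjusted p = 0.014). The WT call was lost without any WT HF liver or WT LF replicate 1 or 2 (adjusted p at most 0.106). Of 13 T and NK cell markers, 2 fell and 0 rose over both genotypes, which is near the 16.7% of all genes that fell. They were Cd3e (-1.02) and Cd4 (-0.51), and the median over the list was -0.018. Within WT that median was -0.45, with 1 of 13 differences positive and 0 called. In Het it was 0.38, with 11 positive and 1 called lower. The part of these cells in the Cxcr6 values was not tested.

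Cxcl13, the B cell attractant of lymphoid follicles, had the largest difference of the 40 genes over both genotypes. It was at -4.41, -2.38 and -4.74 in Het HF against -2.59, 0.75 and -1.62 in Het LF, and at -2.74, -1.76 and -2.41 in WT HF against -0.84, -0.070 and 0.60 in WT LF. Every WT HF liver was below every WT LF liver, and in Het the overlap came from Het HF replicate 2 and Het LF replicate 1. It fell by 2.69 in Het (SE 0.82, adjusted p = 0.048), differed by -2.20 ± 0.82 in WT (adjusted p = 0.125) and fell by 2.45 over both (SE 0.58, adjusted p = 0.011). The Het call held only without Het HF replicate 2 or Het LF replicate 1, the other 10 removals giving an adjusted p of at most 0.157, and without Het LF replicate 2 the difference was -1.74. The call over both genotypes held under each removal. Its receptor gene Cxcr5 differed by -0.38 ± 0.27 (adjusted p = 0.312), and 0 of the 4 tested B cell markers passed.

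Cxcl12, the ligand of Cxcr4 made by stromal and endothelial cells, and the homeostatic Cxcl14 did not pass. Cxcl12 was at 5.03, 5.26 and 5.01 in Het HF against 5.13, 5.14 and 5.47 in Het LF, and at 5.11, 4.93 and 5.21 in WT HF against 5.13, 5.25 and 5.02 in WT LF. The groups overlapped, and the difference was -0.097 ± 0.098 over both genotypes (adjusted p = 0.473). Cxcl14 differed by 0.65 ± 0.37 (adjusted p = 0.202).

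The other 6 tested CC ligands serve lymphoid, mucosal and type 2 traffic, and 0 of them passed. Ccl19 and Ccl21c, ligands of Ccr7, differed by 0.41 ± 0.22 and -0.77 ± 0.31 over both genotypes (adjusted p = 0.169 and 0.083). Ccl25, the ligand of Ccr9, differed by -0.22 ± 0.13, and Ccl27, a skin chemokine, by -0.018 ± 0.099. Ccl24, an eosinophil attractant, differed by -0.19 ± 0.19, and Ccl17, a ligand of Ccr4, by 0.44 ± 0.21 (adjusted p = 0.473 and 0.136). Ccl21c and Ccl27 have near-identical copies in the mouse genome, which these probes may not tell apart.

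Among the receptors, Ccr2, Ccr7 and Cx3cr1 rose over both genotypes and Cxcr6 fell. Ccr7, which guides dendritic cells and T cells to lymph nodes, was at -3.38, -3.91 and -3.89 in Het HF against -5.65, -5.22 and -5.02 in Het LF, and at -3.91, -4.07 and -4.53 in WT HF against -4.56, -4.80 and -4.58 in WT LF. All high-fat livers were above all low-fat livers, and only 1 of the 3 Het LF arrays measured it well above background. The difference was 1.57 ± 0.22 in Het (adjusted p = 0.0042), 0.48 ± 0.22 in WT (adjusted p = 0.195) and 1.02 ± 0.15 over both (adjusted p = 0.0014). With normexp background correction it was 0.90 in Het and 0.64 over both, smaller but still called.

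Ccr2, the receptor of Ccl2 on inflammatory monocytes, was at -2.35, -2.49 and -1.11 in Het HF against -2.76, -2.64 and -3.57 in Het LF, and at -2.60, -2.32 and -2.82 in WT HF against -2.90, -3.69 and -3.01 in WT LF. Each genotype's groups did not overlap, and Het HF replicate 3 stood well above the rest. The difference of 0.81 ± 0.27 passed (adjusted p = 0.040), but the call held only without Het HF replicate 1 or 2, WT LF replicate 1 or Het LF replicate 2, with an adjusted p of at most 0.082 under the other 8 removals, and the second probe gave 0.63 ± 0.34 (adjusted p = 0.184).

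Other receptors did not pass. Ccr3, an eosinophil receptor, differed by 0.17 ± 0.22 over both genotypes, Ccr9, a receptor of gut-homing cells, by -0.31 ± 0.14, and Cxcr4, the receptor of Cxcl12, by 0.54 ± 0.36 (adjusted p = 0.580, 0.124 and 0.280). Ccr6, the receptor of Ccl20, differed by -0.46 ± 0.20 (adjusted p = 0.106), and the differences of Ccr4 and Il8rb are given with genotype.

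Ccrl2, an atypical receptor that binds chemerin and does not signal, again had probes that disagreed. The brightest was at -2.10, -2.11 and -1.59 in Het HF against -1.79, -1.77 and -1.98 in Het LF, and at -1.71, -1.85 and -2.07 in WT HF against -1.89, -2.10 and -1.93 in WT LF, with overlap and a difference of 0.0050 ± 0.11. The other was at -1.78, -1.99 and -1.90 in Het HF against -2.48, -2.58 and -2.28 in Het LF, and at -1.92, -2.18 and -2.19 in WT HF against -2.62, -2.41 and -2.81 in WT LF. On that probe no high-fat liver overlapped a low-fat one, and the difference was 0.53 ± 0.10 (adjusted p = 0.0040). Both were well above background on all 12 arrays and lie on the minus strand, 444 bases apart, in mm7 at chr9:110752906-110752965 for the brighter and chr9:110753350-110753409 for the other:
Ccrl2, brightest probe: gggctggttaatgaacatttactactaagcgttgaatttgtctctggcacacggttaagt
Ccrl2, other probe: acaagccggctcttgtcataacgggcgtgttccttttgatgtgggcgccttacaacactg

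In all, 12 of the 40 genes had more than 1 tested probe. The brightest probe was called over both genotypes for 3 of them (Ccr2, Cx3cr1 and Cxcl16), another probe for 3 (Ccl7, Ccrl2 and Cxcl16), and both for 1, Cxcl16. Probes of Ccl5, Ccl19, Ccl24, Ccl25, Ccr2, Cxcl12, Cxcl16 and Cxcr4 gave differences of the same sign over both genotypes, while those of Cx3cr1 and Il8rb differed in sign. The cause of the disagreements was not tested.

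**Figure D3:**
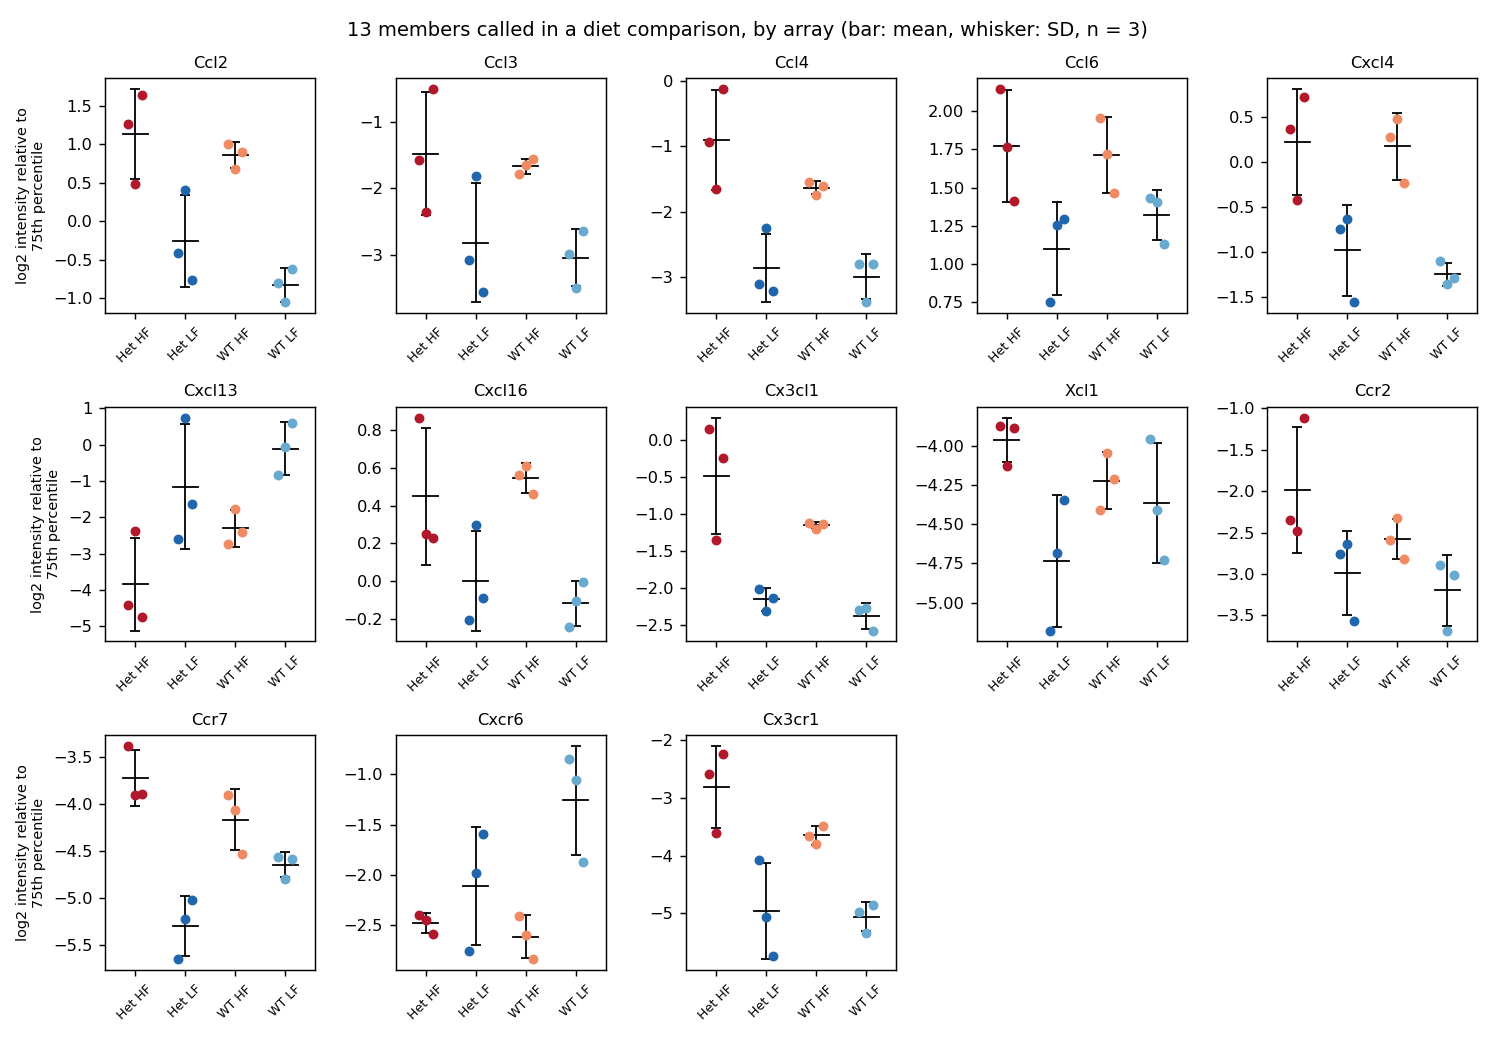
Level on each array (log2 intensity relative to the 75th percentile of the array) of 13 genes called in a diet comparison, for Het HF, Het LF, WT HF and WT LF; points are livers, bars means and whiskers SD, n = 3. High-fat points lie above low-fat points for Ccl2, Ccl4, Cxcl4, Cx3cl1, Ccr7 and Cx3cr1 and below them for most of Cxcl13.

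**Figure D4:**
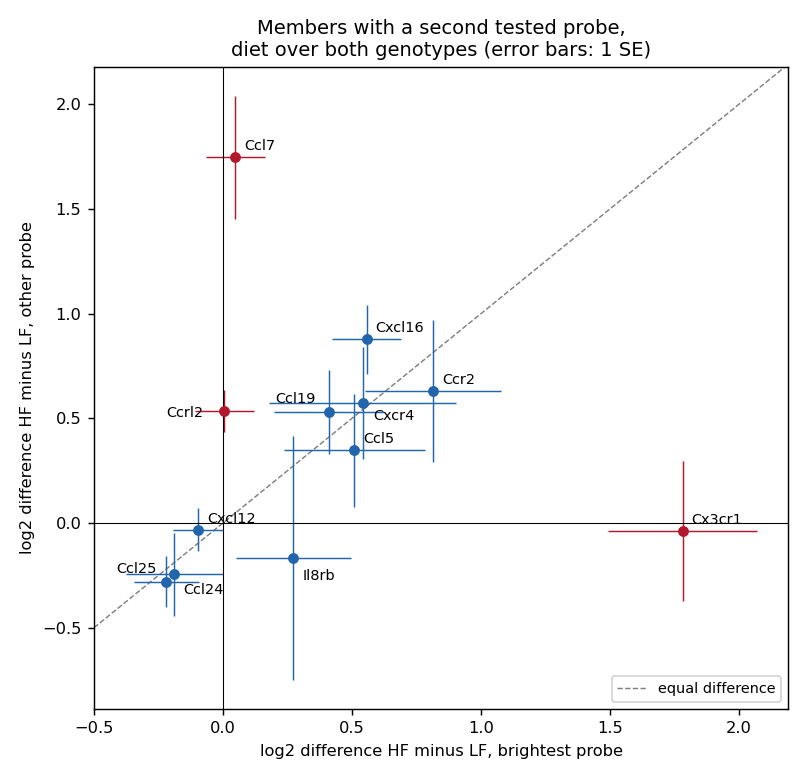
Diet difference over both genotypes (log2, HF minus LF, error bars 1 SE) of the brightest probe (horizontal) and of the other tested probe (vertical) for 12 genes, with the dashed line at equality. Ccl7 and Ccrl2 (red) lie high near 0 on the horizontal axis, Cx3cr1 (red) lies near 0 on the vertical axis, and Il8rb lies below the line at 0.27 and -0.17 with wide error bars.

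Between genotypes 0 of the 40 genes passed on the high-fat diet (Het HF minus WT HF), on the low-fat diet (Het LF minus WT LF), over both diets or for the interaction, and the background was 0% in each, since 0 of 17042 genes passed in limma. At an unadjusted p under 0.05 there were 4, 4, 3 and 3 members in these comparisons, against 8.66%, 2.0%, 4.84% and 4.86% of all genes. With 3 livers a group an exact permutation test could not go below p = 0.1 within a diet. The genes of lowest p are described here as not passing.

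Il8rb, the neutrophil receptor now called Cxcr2, had the lowest p of the 40 on the high-fat diet. It was at -3.71, -3.90 and -4.26 in Het HF against -5.91, -6.33 and -4.89 in WT HF, and at -5.26, -4.68 and -4.98 in Het LF against -5.28, -5.05 and -5.38 in WT LF. On the high-fat diet the genotypes did not overlap, all Het HF arrays and 1 of the 3 WT HF arrays measured the gene well above background, and on the low-fat diet the genotypes overlapped. The difference was 1.75 ± 0.31 on the high-fat diet (unadjusted p = 0.00018, adjusted p = 0.345) and 0.26 on the low-fat diet (adjusted p = 0.9999). Il8rb entered the test through Het HF alone, the group where it was highest. A call between genotypes on the high-fat diet is therefore not independent of that filter. Without WT HF replicate 3, the only WT HF array that measured it well above background, it was called on the high-fat diet (adjusted p = 0.0048) and over both diets (adjusted p = 0.035), and the count of members called was 1 in each. The other WT HF arrays then give only a bound, at least 3.45-fold higher in Het HF. They were on slide 1, while WT HF replicate 3 was on slide 2 with all Het HF arrays. Without that replicate, genotype on the high-fat diet therefore cannot be told apart from slide. With all arrays kept, the difference was 0.93 with slide as a block and 0.74 with normexp.

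The second Il8rb probe was at -4.38, -4.38 and -5.20 in Het HF against -5.51, -7.58 and -6.71 in WT HF, and at -5.75, -2.98 and -6.86 in Het LF against -5.25, -5.85 and -6.06 in WT LF. On the high-fat diet the genotypes did not overlap on it, with a difference of 1.95 ± 0.82 (adjusted p = 0.526), and Het LF replicate 2 stood far above its group. It was well above background on 6 of the 12 arrays, against 8 for the brightest probe. Its lowest group mean, -6.60, was that of WT HF, so this difference too is limited by dim signal. Diet differences of Il8rb on the brightest probe were 1.02 ± 0.31 in Het (adjusted p = 0.051) and -0.47 ± 0.31 in WT (adjusted p = 0.367), and the interaction of 1.49 ± 0.45 did not pass (adjusted p = 0.944). The summed level of neutrophil markers was 0.89 to 2.26 in Het HF against 0.30 to 3.28 in WT HF. WT HF replicate 2 was at 3.28 and WT HF replicates 1 and 3 at 0.86 and 0.30, with the lowest Het HF liver at 0.89. WT HF replicate 2, highest of all arrays in this sum, had the lowest Il8rb of all arrays on both probes (-6.33 and -7.58). The part of neutrophils in the Il8rb values was not tested.

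Ccr4, a receptor of type 2 and regulatory T cells, was at -4.01, -3.52 and -5.09 in Het HF against -6.36, -7.54 and -4.06 in WT HF, and at -6.32, -4.81 and -6.29 in Het LF against -5.08, -5.62 and -5.84 in WT LF. WT HF replicate 3 lay among the Het HF livers, and the gene was near background in every group but Het HF. The difference on the high-fat diet was 1.78 ± 0.77 (adjusted p = 0.559), and with slide as a block it turned to -0.15. Cxcl7 was at -3.10, -3.24 and -3.30 in Het HF against -2.96, -1.23 and -2.82 in WT HF, and at -3.37, -2.63 and -3.33 in Het LF against -3.24, -3.03 and -3.44 in WT LF. Het HF lay below WT HF without overlap, with WT HF replicate 2 far above the other livers, and the difference was -0.88 ± 0.39 (adjusted p = 0.567).

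On the low-fat diet Ccr7, Ccr6 and Cxcr6 had the lowest p, each lower in Het LF. Ccr7 differed by -0.65 ± 0.22 without overlap of the genotypes, but only 1 of the 3 Het LF arrays measured it well above background. Ccr6, a receptor of B cells and T helper 17 cells, was at -3.49, -3.80 and -3.66 in Het LF against -1.99, -3.08 and -3.33 in WT LF, and at -3.88, -3.72 and -3.97 in Het HF against -3.39, -3.37 and -3.81 in WT HF. It did not overlap on the low-fat diet, by -0.85 ± 0.29, and WT LF replicate 1 stood above the rest. Cxcr6 differed by -0.85 ± 0.31, where Het LF replicate 3 lay above WT LF replicate 3. All 3 had an adjusted p of 0.9999 on this diet. WT LF replicate 1 also had the highest summed B cell markers, where WT LF ranged between -0.16 and 1.36 against -0.41 to 0.045 in Het LF, and the part of those cells in these values was not tested.

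Over both diets the lowest p after Il8rb were those of Ccr6 (-0.59 ± 0.20) and Cxcl13 (-1.30 ± 0.58), each with an adjusted p of 0.999. For the interaction they were those of Ccr7 (1.09 ± 0.31, adjusted p = 0.944), Il8rb and Cxcr6 (0.99 ± 0.43, adjusted p = 0.99998). Ccl8 was at least 2.24-fold lower in Het LF than in WT LF, where 2 of the 3 WT LF arrays and no Het LF array measured it, and it did not pass (adjusted p = 0.9999).

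**Figure D5:**
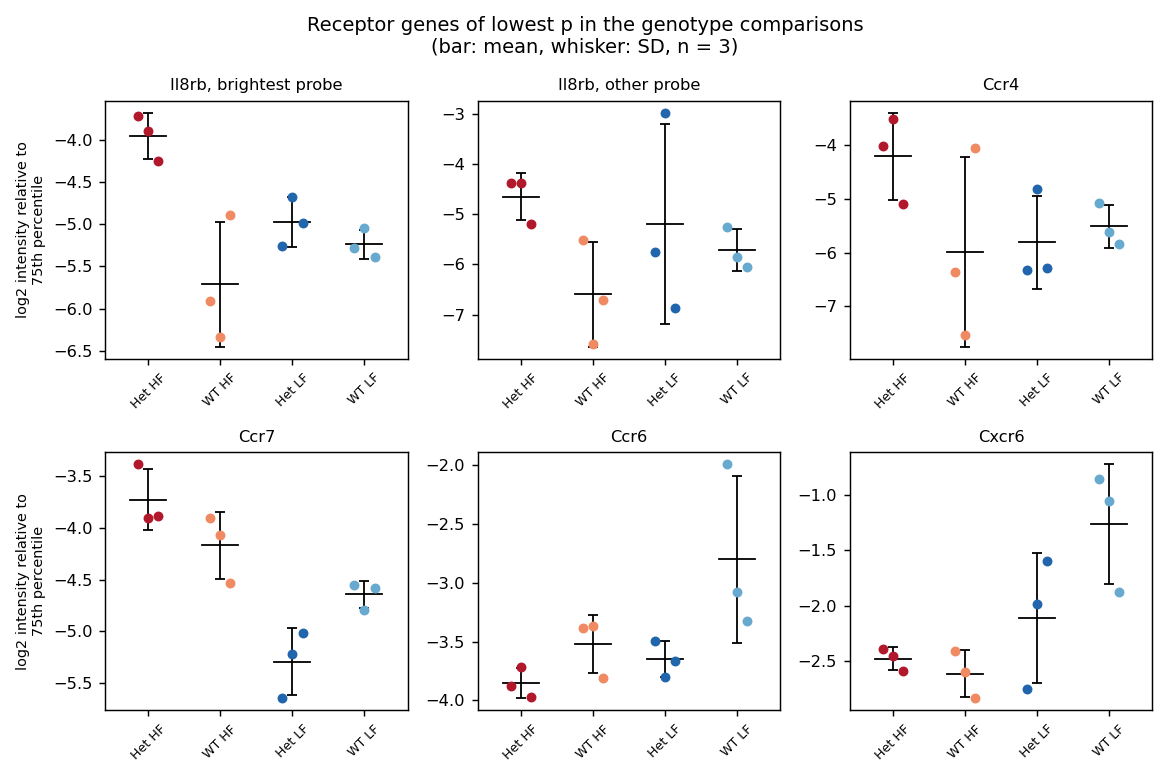
Level on each array (log2 intensity relative to the 75th percentile of the array) of 5 receptor genes of low p in the genotype comparisons, Il8rb with both probes, for Het HF, WT HF, Het LF and WT LF; points are livers, bars means and whiskers SD, n = 3. Il8rb is higher in Het HF than in WT HF on both probes, which were well above background on 8 and 6 of the 12 arrays. No difference passed the test.

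Genes that act with chemokines were taken from lists chosen with earlier results known. Of 4 atypical receptors that scavenge chemokines, 2 rose on the high-fat diet over both genotypes, where 13.4% of all genes rose, Ackr2 by 0.42 ± 0.11 and Ackr3 by 0.76 ± 0.21 (adjusted p = 0.018 and 0.020). Of 26 genes of receptor signalling, 7 rose and 0 fell, where 13.4% of all genes rose and 16.7% fell. Among those that rose were the PI3K-gamma adaptor Pik3r5 (0.83), the Rac activators Dock2 (0.66) and Vav1 (0.54), the G protein regulators Rgs1 (1.07) and Rgs2 (0.67) and the phospholipase Plcb2 (0.45). The median difference of the 26 was 0.25 against -0.029 for all genes. Of the 3 processing enzymes Dpp4, Adam10 and Adam17, 0 passed.

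Among 20 inducers and regulators of chemokine genes, 6 rose and 3 fell over both genotypes, against 13.4% and 16.7% of all genes, so that the share that fell is near the background. Those that rose were the receptor Tlr2 (1.11 ± 0.16), the NF-kB subunits Nfkb2 (0.97 ± 0.090) and Relb (0.93 ± 0.14), the NF-kB inhibitor Tnfaip3 (0.51), and Irf7 (0.39) and Irf8 (0.48). Nfkb1 fell by 0.42, the cytokine Il6 by 0.82 and the mRNA decay factor Zfp36 by 0.62. Tnf, Il1b, Ifng and the other 8 did not pass. Among 8 chemoattractant genes with other names, Cmklr1, the chemerin receptor, fell by 1.01 (adjusted p = 0.0018) and 0 rose.

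Of 47 immune cell markers tested, 12 (25.5%) were called with diet over both genotypes, against 30.2% of all genes. By list, 2 of 6 monocyte markers rose, Itgax by 1.65 ± 0.28 and Chil3 by 2.51 ± 0.38. Of 14 macrophage markers, Cd68, Cd14 and C1qb rose by 0.61, 1.37 and 0.69, and the resident Kupffer cell gene Timd4 fell by 1.72. Of 6 tested neutrophil markers 3 rose, of 13 T and NK cell markers 0 rose and 2 fell, and of 4 dendritic cell markers 1 fell. In the liver's own cells, where 30.2% of all genes were called, 13.4% higher and 16.7% lower, 5 of 7 stellate and 3 of 5 cholangiocyte markers rose, 1 of 7 endothelial markers rose and 2 fell, and 2 of 6 hepatocyte markers fell.

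The summed monocyte level was 3.53 to 3.84 in Het HF and 3.25 to 3.34 in WT HF, against 2.45 to 3.27 in Het LF and 2.53 to 3.15 in WT LF. High-fat livers of each genotype were therefore above the low-fat ones, and Het HF was above WT HF without overlap. The summed T and NK cell level was 0.87 to 1.07 in Het HF and 0.37 to 0.68 in WT HF, against 0.53 to 1.01 in Het LF and 0.83 to 1.14 in WT LF, so the genotypes were apart on the high-fat diet. Between genotypes on that diet 0 of the 6 monocyte and 0 of the 13 T and NK cell markers passed, as did 0 of all genes. The sums themselves were not tested. Summed macrophage levels overlapped between all groups, within 6.84 to 7.77. A sum adds linear intensities, so the brightest probes weigh most in it. Taken marker by marker, the median macrophage difference with diet over both genotypes was 0.27, with 11 of 14 positive, against -0.029 for all genes. The part of these cells in the chemokine differences was not tested.

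Promoter sequences were looked at because chemokine genes are textbook targets of NF-kB, interferon-regulated factors and AP-1. RefSeq windows from 250 bases before to 50 after the start (GRCm38.p6) were matched for 39 of the 52 genes in 45 windows, and Ccl2, Ccl4, Ccr7 and Cxcl16 are not among them. Both strands were searched for the NF-kB motif (kB), for the interferon response motif (GAAA, any 2 bases, GAAA) and for the AP-1 motif TGANTCA, and overlapping matches were counted separately. The kB motif was found in 24.4% of the 45 windows against 8.46% of all 32851, the interferon motif in 6.67% against 3.44% and the AP-1 motif in 20% against 7.81%. Of the 9 diet-called genes with a window, 0 held any of the 3, while 7 of the 21 tested but uncalled genes held kB. With so few genes, 0 of 9 cannot be told apart from the 8.46% of all windows that held kB. This describes letters in a short window and says nothing of binding there or of sites elsewhere.

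The windows of Cxcl10 and Cxcl1, neither of which passed, are printed for their matches, in capitals, and that of Cx3cl1, which rose in both genotypes, as one without any. Cxcl10 lies at chr5:92348840-92349139 on the minus strand, with 3 kB matches, 1 interferon and 1 AP-1 match. Cxcl1 lies at chr5:90890995-90891294 on the plus strand with 2 overlapping kB matches, and Cx3cl1 at chr8:94771930-94772229 on the plus strand:
Cxcl10: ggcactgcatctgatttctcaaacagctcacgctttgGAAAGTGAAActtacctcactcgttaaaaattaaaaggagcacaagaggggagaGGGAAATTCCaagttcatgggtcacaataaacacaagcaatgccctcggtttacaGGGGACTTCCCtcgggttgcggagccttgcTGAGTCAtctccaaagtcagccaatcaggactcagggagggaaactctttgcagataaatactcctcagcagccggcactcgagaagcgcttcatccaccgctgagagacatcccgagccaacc
Cxcl1: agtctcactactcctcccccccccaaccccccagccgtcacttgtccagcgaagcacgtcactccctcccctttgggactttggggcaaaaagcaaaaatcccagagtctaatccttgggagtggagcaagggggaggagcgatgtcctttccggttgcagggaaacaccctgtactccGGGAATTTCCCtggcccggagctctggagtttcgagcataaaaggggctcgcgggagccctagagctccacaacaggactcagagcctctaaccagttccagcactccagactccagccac
Cx3cl1: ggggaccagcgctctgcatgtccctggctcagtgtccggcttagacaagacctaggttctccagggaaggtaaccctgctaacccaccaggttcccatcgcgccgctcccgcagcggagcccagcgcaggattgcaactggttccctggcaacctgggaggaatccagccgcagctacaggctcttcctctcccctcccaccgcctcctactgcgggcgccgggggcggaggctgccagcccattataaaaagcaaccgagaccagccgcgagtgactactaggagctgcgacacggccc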

How the data were processed

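Total RNA of 12 livers was labelled with Cy3 and hybridised to 1-colour Agilent arrays. The deposited spot intensities are Agilent's processed signals, background-subtracted with Feature Extraction 9.5, per the file headers and the submitters' processing notes, with positions on mouse build mm7. Here each spot's intensity was divided by its array's 75th percentile over non-control spots and put on the log2 scale. Control spots and the outlier-flagged spots were left out, and spots of a probe were averaged. Each gene was represented by its brightest probe, after symbols were updated through RefSeq gene names. Genes well above background on every array of 1 group or more were tested with limma 3.58.1 in R 4.3.3. All 4 groups shared one fit, with 7 comparisons and Benjamini-Hochberg adjustment over 17042 genes, threshold 0.05. Values of second probes come from a like fit of every probe that passed the filter, adjusted over 25296 probes. No adjusted p in the text comes from another tool. The fit was tested on simulated data with known changes. The series' design text calls the replicates biological. Python 3.11.15, pandas 2.3.3 and matplotlib 3.10.9 handled tables and plots.

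Members, gene lists and tests were chosen with earlier results of these data known. Values on every array are given for each called member, for the 3 of lowest p in comparisons with fewer than 3 calls, and for the 3 brightest ligands and receptors. Other scalings, background correction, filters, designs and left-out arrays were tried. Counts cover every gene of the rule and the lists, and 1 member and 1 listed gene are not reported here by name.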

Additional observations from a re-analysis of the deposited data

Results flagged for a closer look

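The diet differences of Ccr7 in Het and WT livers differed by 1.09 on the log2 scale, and the genotypes lay in opposite order on the 2 diets: Het was above WT by 0.44 on the high-fat diet and below it on the low-fat diet (-0.65). The test of that difference across all genes, limma's interaction term, did not pass (adjusted p = 0.944). Only 1 of the 3 Het LF arrays measured Ccr7 well above background, so its low Het LF values are limited by dim signal. With normexp background correction the Het diet difference was 0.90, against 1.57 as reported.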

How the results depend on the processing

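Main counts of called chemokine genes were 8 for diet in Het, 4 in WT and 13 over both genotypes. In WT the count was 7 with scaling to the median, 0 with no filter on dim probes, 9 with only the 2 groups fitted and 12 with slide as a random block. In Het it was 5 with no filter, 5 with only the 2 groups and 16 with slide as a random block, and over both genotypes that last setting gave 22. Its estimated slide correlation was -0.177, and each diet had slides of its own. Calls over all genes moved too. As reported they were 1009 in WT, 2702 in Het and 5140 over both, of 17042. With slide as a random block they were 3596, 5426 and 8712. With only the 2 groups they were 598 in WT and 1560 in Het. With no filter, 156 and 1191 of 27668 genes were called in WT and Het. Scaling to the median called 1337 in WT. Among the chemokine genes, leaving out 1 array gave 4 to 8 calls in Het, 0 to 6 in WT and 11 to 15 over both. The WT count was 0 without WT HF replicate 1, 2 or 3 or WT LF replicate 1, 1 without WT LF replicate 2, 2 without WT LF replicate 3 and 6 without Het HF replicate 2. Where it was 0, between 186 and 254 of all genes were called in WT, against 1009 with all arrays. The Het count was 4 without Het HF replicate 1 and 5 without Het LF replicate 1 or 3. Genotype counts ranged from 0 to 1 on the high-fat diet and over both diets. The 1 was Il8rb, a gene that entered the test through Het HF alone, and it was called only without WT HF replicate 3. In that setting genotype on the high-fat diet cannot be told apart from slide. The Ccr4 genotype difference on the high-fat diet turned to -0.15 with slide as a fixed block. Same-numbered livers did not deviate together (correlations -0.47 to 0.12), so the numbers pair nothing, and with replicate block the counts were 6, 1 and 12 in Het, WT and both. Over all genes, 46.2% of WT calls were higher in HF, against 74.6% with scaling to the median and 59.6% with quantile normalization, and over both genotypes 44.5% against 60.4% with scaling to the median. Scaling to the median moved the median WT difference of all genes to 0.071, against -0.047. The causes were not tested. Dim probes limit Ccl8, Ccl12, Ccr4 and Il8rb. They also limit the size of the Het diet differences of Ccr7 and Cx3cr1, each well above background on 1 of the 3 Het LF arrays. With normexp those were 0.90 and 1.36, against 1.57 and 2.15 as reported.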
